A study of Mus musculus with 8 samples.

Results

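Circular RNAs (circRNAs) are closed RNA loops made when the end of an exon is spliced back to the start of the same or an earlier exon, and each carries the name of the host gene it comes from. The circRNAs described here come from chromatin regulator genes: 253 circRNAs of 75 hosts, out of 6315 circRNAs of 2841 hosts in the deposited tables, which is 4.01% of those listed. They were picked out by the host name alone, by a fixed set of name stems (such as Kdm, Setd, Smarc, Ezh and Asxl). This rule uses no measured value, but it was set with earlier results of these data known. Some hosts carry older symbols: Mll1, Mll3 and Mll5 are now Kmt2a, Kmt2c and Kmt2e, Whsc1 is Nsd2, Whsc1l1 is Nsd3, and Phf17 is Jade1. Mllt4, now Afdn, is an adhesion protein that the stems took in through its old name, and its 2 circRNAs were not tested. The source transcripts of 229 of the 253 circRNAs could be looked up, and in all 229 the symbol was that of the listed host.

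The RNA came from whole mouse kidneys of animals aged 8 to 10 weeks, of a strain written C57BL/6L in the labels, with no genotype other than wild type named. The 3 control libraries are titled wild type, and the design text calls the controls sham-operated. The 2 AC libraries are labelled acute-chronic and dated to day 5 in their titles; the design text, which names ischaemia/reperfusion as one of the injuries, does not use that term. The 3 UUO libraries come from kidneys 5 days after unilateral ureteral obstruction, a model in which blocked urine flow injures the tubules. Whether each library is a separate animal is not stated in the labels, so the spread between libraries may be partly technical. Library totals ran from 40865 to 65145 circRNA counts, so 3 counts came to 56.6 to 87.5 CPM, the usual unit of counts scaled to library size.

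Chromatin regulators set which genes a cell can use. Methyltransferases and acetyltransferases add marks to histones, demethylases and deacetylases remove them, reader proteins bind them, and remodelling complexes use ATP to move nucleosomes. In the kidney, Polycomb methylation and histone deacetylation have been studied as drug targets in models of fibrosis. A circRNA of such a host is not the protein's messenger RNA, and the linear transcripts of these hosts were not analysed here, so a count below says how many back-spliced reads were listed and nothing of the protein.

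Against control, circRNAs of Arid5b and Whsc1 and the summed circRNAs of Ezh2 passed an edgeR adjusted p of 0.05 as higher in UUO. A Jmjd1c circRNA passed as higher in AC, and the summed circRNAs of Smarca2 passed as lower in both injuries. With edgeR, these 5 hosts hold every call among the chromatin regulators in both comparisons, counting circRNAs 1 by 1 and summed per host. Each of these calls was lost when at least 1 library was left out, as given beside it. The split by injury follows the threshold. The sums of Arid5b, Whsc1 and Ezh2 also lay above control without overlap in AC (log2 fold changes 1.20, 0.67 and 0.78) and did not pass there. In UUO against AC 0 members passed. When libraries were scaled by the constant that links both deposited tables, the median of all tested circRNAs moved to -0.26 in UUO and -0.34 in AC (log2); the calls of Arid5b in UUO and of the Smarca2 sum in both injuries held, and those of Whsc1, Ezh2 and Jmjd1c were lost. UUO and AC were compared with the same 3 control libraries, so the results in both injuries are not independent of each other. In whole kidneys, a circRNA can be lower through fewer cells of a type or through less RNA per cell, and these cannot be told apart here.

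Most of the 253 circRNAs were rare. The median had 17 counts over the 8 libraries together (14 over all listed circRNAs), 61 were found in all 8 libraries, 47 in 1 library, and 24 had a total of 1 count or less. The low-count filter left 64 of them, from 34 hosts, for testing; this is 25.3%, against 23.3% of all listed circRNAs. Of the 64, 43 reached the count cutoff in all 3 groups and 2 in a single group. These 2 were mmu_circ_0000849 of Asxl3, in control, and mmu_circ_0009666 of Mllt10, in AC. Each was highest in that group, so the filter itself favours the direction of its fold changes. The 189 that were not tested never had more than 20 counts in a library, and all of them entered the host sums, which left 38 of the 75 hosts testable. The tested circRNAs held 82% of the counts of all 253.

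Chromatin regulator hosts were listed with more circRNAs each than hosts as a whole. The median was 3 per host against 1 over all hosts, these included, and the mean was 3.37 against 2.21. Ehmt1, a methyltransferase of silent marks in otherwise open chromatin, had 16 and ranked 3 of all hosts, the highest number in any host being 21; 22 chromatin hosts had 1. In most hosts a single circRNA led. Among the 27 hosts with at least 2 circRNAs and 100 counts, the leading circRNA held a median of 57.8% of the host's counts, from 23.6% in Mllt10 to 99.7% in Jmjd1c. An entry in the evidence column of the deposited table was present for 15.4% of the 253 and 17.2% of all listed. The members with an entry had a median of 68 counts and those without had 13.5.

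The 253 circRNAs together held 3.35%, 3.50% and 3.44% of all circRNA counts in the control libraries, 4.11% and 3.65% in AC, and 3.56%, 3.40% and 3.78% in UUO. The means were 3.43% ± 0.0773 (SD, n = 3), 3.88% ± 0.32 (SD, n = 2) and 3.58% ± 0.19 (SD, n = 3). Both AC libraries lay above every control, while UUO overlapped with control. Split by role, circRNAs of histone methyltransferases held 1.15%, 1.22% and 1.24% in control, 1.55% and 1.45% in AC, and 1.47%, 1.41% and 1.60% in UUO, so each injured library lay above each control. Without Ezh2 and Whsc1, the other methyltransferases held 0.702% to 0.804% in control, 0.647% to 0.759% in AC and 0.672% to 0.741% in UUO, which overlap. Demethylases held 0.327% to 0.379% in control against 0.384% to 0.549% in the 5 injured libraries, and the other ARID proteins, mostly Arid5b, 0.0353% to 0.0608% against 0.109% to 0.165%, also without overlap. The demethylase share includes Jmjd1c, with 15, 32 and 26 counts in control, 90 and 54 in AC, and 21, 42 and 61 in UUO. It does not show a rise across the role, as 3 of the 7 tested demethylase host sums had a positive log2 fold change in each injury. These shares are given as a description, with no test.

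Of the 64 tested circRNAs, 2 passed an edgeR adjusted p of 0.05 in UUO against control, both higher, where 4.35% of all 1471 tested circRNAs passed (2.86% higher and 1.50% lower). In AC against control 1 passed, also higher, where 3.33% of all did (1.90% higher and 1.43% lower). At an unadjusted p under 0.05 there were 8 of the 64 in UUO, where 15.5% of all tested were, and 11 in AC, where 14.1% were. The median log2 fold change of the 64 was -0.09 in UUO (0.02 over all tested) and -0.06 in AC (-0.02 over all). Libraries of both groups did not overlap for 5 higher and 6 lower circRNAs in UUO, where 24.3% of all tested did not overlap, and for 11 higher and 7 lower in AC, where the share was 30.7%. As host sums, 3 of 38 passed as higher and 1 as lower in UUO, where 6.50% of 1185 hosts passed (3.71% higher and 2.78% lower). In AC 1 passed as higher and 1 as lower, where 3.46% of all hosts passed (2.03% higher and 1.43% lower). At an unadjusted p under 0.05 there were 7 of the 38 hosts in UUO (231 of all 1185) and 8 in AC (178 of all 1185). The median log2 fold change of the 38 hosts was -0.10 in both comparisons.

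**Figure D1:**
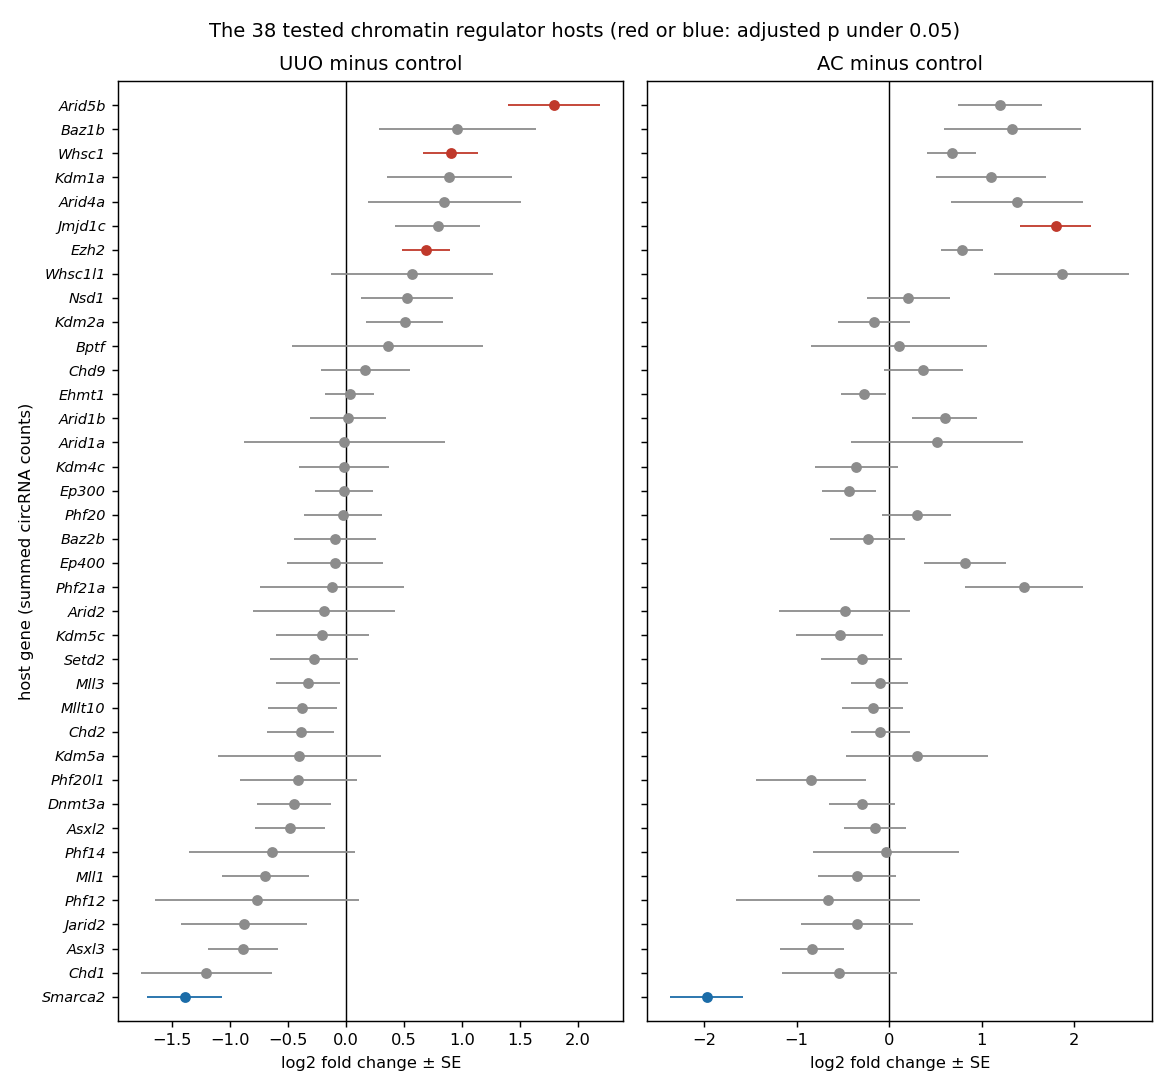
Log2 fold change with its standard error (x axis) for the 38 tested chromatin regulator hosts (y axis, ordered by the UUO value), in UUO minus control (left) and AC minus control (right), with hosts past an adjusted p of 0.05 in red (higher) or blue (lower). Most hosts lie within 1 log2 unit of 0; Arid5b at 1.79 and Smarca2 at -1.39 end the UUO column, and Jmjd1c at 1.80 and Smarca2 at -1.97 are the called hosts of the AC column.

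Histone methyltransferases held more counts than any other role, with 61 circRNAs of 13 hosts, of which 19 from 8 hosts were tested. In UUO 15 of the 19 had a positive log2 fold change (median 0.36) and 1 passed; in AC 13 were positive (median 0.47) and 0 passed with edgeR, with 4 at an unadjusted p under 0.05 (14.1% of all tested). Ezh2 and Ehmt1 gave 5 tested circRNAs each; as host sums 5 of 8 were positive in UUO (median 0.28) and 4 of 8 in AC (median 0.05). With the deposited constant as scaling, 12 of the 19 circRNAs were positive in UUO and 10 in AC. The members of the role did not all lie on one side. The tested circRNAs of Ezh2 were on the positive side in both injuries and those of the NSD family, which methylates histone H3 along transcribed genes, in UUO, while Mll1 and Mll3 had negative host sums in both.

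Ezh2 is the catalytic subunit of Polycomb repressive complex PRC2, which lays down a silencing methyl mark on histone H3. Its circRNA mmu_circ_0001471 was the most abundant of the 253, with 1481 counts, and ranked 26 among all listed circRNAs. The counts of the 8 Ezh2 circRNAs summed to 114, 260 and 168 in control, 318 and 204 in AC, and 270, 224 and 338 in UUO. Scaled to library size, all 5 injured libraries lay above the 3 controls, the closest being UUO replicate 2 at 4655 CPM against control replicate 2 at 4632 CPM. The sum was 1.61-fold higher in UUO (log2 fold change 0.69, SE 0.21, edgeR adjusted p = 0.0498), at 5745 ± 944.3 CPM (SD, n = 3) against 3555 ± 960.1 CPM (SD, n = 3) in control. This value stands close to the threshold: without control replicates 1 or 3, or UUO replicates 1 or 3, the edgeR adjusted p was 0.150, 0.140, 0.112 and 0.146. In AC the sum stood at 6126 ± 1113 CPM (SD, n = 2), and its log2 fold change of 0.78 (SE 0.23) did not pass (edgeR adjusted p = 0.0600); without control replicate 2 it did (adjusted p = 0.00176), as it did with DESeq2 (adjusted p = 0.0139) and limma-voom (adjusted p = 0.0362).

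The 5 tested Ezh2 circRNAs had positive log2 fold changes in both injuries, and 0 of them passed with edgeR by itself. The leading mmu_circ_0001471 had 99, 227 and 122 counts in control, 225 and 152 in AC, and 216, 165 and 275 in UUO. Its log2 fold change was 0.67 in UUO (SE 0.23, edgeR adjusted p = 0.130) and 0.63 in AC (SE 0.26, adjusted p = 0.272). Control replicate 2 was the high control library; without it this circRNA passed in UUO and in AC (adjusted p = 0.0209 and 0.0394). The minor circRNA mmu_circ_0001472 had 2, 10 and 23 counts in control, 44 and 14 in AC, and 27, 23 and 40 in UUO, with a log2 fold change of 1.48 in UUO (SE 0.56, adjusted p = 0.169). The circRNA mmu_circ_0001470 had 1, 3 and 6 counts in control against 20 and 11 in AC and 10, 8 and 7 in UUO. It had the highest log2 fold change of the 64 tested members in AC, 2.45 (SE 0.87), and did not pass at these counts (edgeR adjusted p = 0.182).

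Whsc1 (Nsd2) dimethylates histone H3 in gene bodies. Nearly all of its counts, 96.1%, came from mmu_circ_0001335, so the circRNA and the host sum are almost the same measurement. This circRNA had 61, 74 and 75 counts in control, 125 and 77 in AC, and 100, 133 and 154 in UUO. The 3 UUO libraries lay well above the 3 controls, and AC replicate 2 lay between them. In UUO it was 1.95-fold higher, at 2959 ± 370.4 CPM (SD, n = 3) against 1523 ± 115.1 CPM (SD, n = 3) in control. The log2 fold change was 0.96 (SE 0.23, edgeR adjusted p = 0.0272). The call was lost without control replicate 2 or 3 or UUO replicate 2 or 3 (adjusted p from 0.0514 to 0.147). In AC its log2 fold change was 0.77 (SE 0.25) and did not pass with edgeR (adjusted p = 0.142), while with DESeq2 it passed (adjusted p = 0.0478).

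The other NSD methyltransferases did not pass. Nsd1 had 5 circRNAs with sums of 45, 17 and 40 in control, 34 and 35 in AC, and 37, 66 and 46 in UUO, which overlap. Its minor circRNAs diverged in AC: mmu_circ_0004674 had 4, 2 and 3 counts in control and 10 and 8 in AC, while mmu_circ_0004671 had 3, 11 and 17 in control and 3 and 2 in AC. Neither difference passed in edgeR (adjusted p = 0.629 and 0.482), and both rest on counts of 17 or fewer. Whsc1l1 (Nsd3) summed to 5, 4 and 11 counts in control, 23 and 19 in AC, and 7, 3 and 20 in UUO. Both AC libraries lay above the controls, with a log2 fold change of 1.86 (SE 0.73, edgeR adjusted p = 0.200), and UUO overlapped with control.

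Ehmt1 (GLP), partner of the methyltransferase G9a, did not pass in either injury. Its 16 circRNAs summed to 131, 136 and 189 counts in control, 111 and 103 in AC, and 140, 155 and 162 in UUO. The log2 fold change in UUO was 0.03 (SE 0.21, edgeR adjusted p = 0.951), and in AC it was -0.28 (SE 0.24, adjusted p = 0.641). The sign in UUO turned when scaled by the deposited constant per library or without control replicate 2 (-0.17 and -0.11). The leading mmu_circ_0000992 had 83, 80 and 103 counts in control, 69 and 42 in AC, and 75, 84 and 75 in UUO. The minor mmu_circ_0009734 was uneven, with 16, 2 and 6 counts in the UUO libraries and 1 and 3 in AC against 5, 5 and 14 in control.

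Mll1 and Mll3, which methylate histone H3 at promoters and enhancers, had high and variable circRNAs. The Mll1 circRNA mmu_circ_0001768 had 39, 182 and 87 counts in control, 53 and 77 in AC, and 50, 35 and 95 in UUO. Control replicate 2 alone was higher than every injured library. Its log2 fold change was -0.63 in UUO (SE 0.40, edgeR adjusted p = 0.490) and -0.28 in AC (SE 0.45, adjusted p = 0.854), and without control replicate 2 the AC value was 0.28. The Mll3 circRNA mmu_circ_0001327 was steadier, with 46, 59 and 75 counts in control, 55 and 41 in AC, and 40, 40 and 48 in UUO. Scaled to library size, its UUO libraries, from 934.1 to 1015 CPM, lay below the controls, from 1113 to 1551 CPM, and it did not pass (log2 fold change -0.39, SE 0.28, adjusted p = 0.535).

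**Figure D2:**
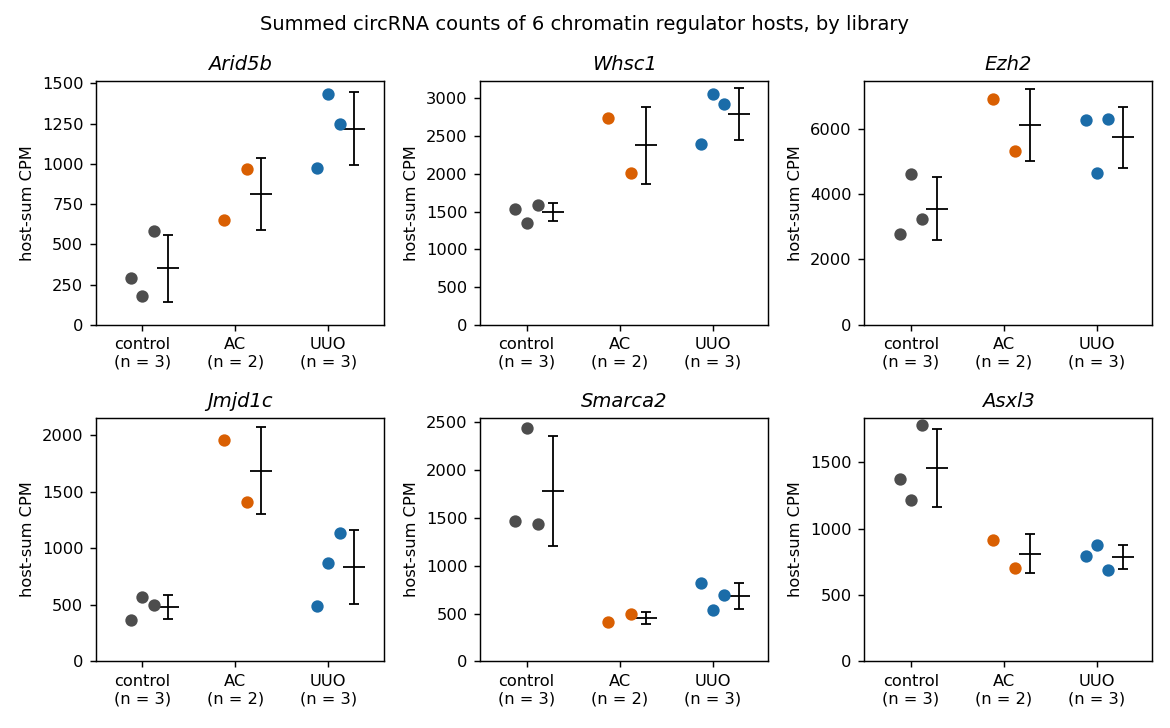
Host-sum CPM (y axis, from 0) of 6 chromatin regulator hosts in each of the 8 libraries (points), by group (x axis), with the group mean and SD beside them. Arid5b, Whsc1 and Ezh2 are higher in all 5 injured libraries than in control, and Jmjd1c is highest in AC. Smarca2 is lower in all 5 injured libraries (413.1 to 814.2 CPM) than in control (1430 to 2441 CPM).

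Demethylases and their relatives had 41 circRNAs of 13 hosts, with 10 tested. In UUO 6 of the 10 were positive and 0 passed in edgeR, with 2 at an unadjusted p under 0.05 (15.5% of all tested); in AC 4 were positive and 1 passed. That circRNA, mmu_circ_0000173, comes from Jmjd1c, a protein of the JmjC demethylase family, and held 99.7% of the host's counts. It had 15, 32 and 26 counts in control, 90 and 54 in AC, and 20, 42 and 61 in UUO. Both AC libraries lay above the controls, and UUO spread from within the control range to just below the AC range. In AC it was 3.56-fold higher, at 1848 ± 385.4 CPM (SD, n = 2) against 513.4 ± 104.7 CPM (SD, n = 3) in control. The log2 fold change was 1.83 (SE 0.39, edgeR adjusted p = 0.0182). The call was lost without control replicate 1 or 3 (adjusted p = 0.0501 and 0.0627) and without AC replicate 1 (adjusted p = 0.150). As a host sum the adjusted p was 0.00817, and 0.127 without AC replicate 1. In UUO the log2 fold change was 0.84 (SE 0.36, adjusted p = 0.253).

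Kdm1a (LSD1), a flavin-dependent demethylase, had the other of the 10 tested demethylase circRNAs whose AC libraries lay above the controls without overlap. Its mmu_circ_0011312 had 4, 6 and 13 counts in control, 20 and 15 in AC, and 18, 18 and 13 in UUO, so all 5 injured libraries lay above the controls once scaled to library size, the closest by a narrow margin. The log2 fold changes were 1.21 in UUO (SE 0.55, edgeR adjusted p = 0.288) and 1.46 in AC (SE 0.60, adjusted p = 0.271), and neither passed. The Kdm4c circRNA mmu_circ_0001218 went the other way, with 22, 30 and 26 counts in control, 17 and 12 in AC, and 21, 10 and 15 in UUO, and did not pass either (adjusted p = 0.509 in UUO).

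Acetyltransferases were represented by Ep300, a coactivator that acetylates histones at enhancers, and by Ep400, an ATPase of the TIP60 acetyltransferase complex, with 12 circRNAs and 5 tested. In both comparisons 0 passed with edgeR; at an unadjusted p under 0.05 there were 0 in UUO and 1 in AC (15.5% and 14.1% of all tested). The latter was mmu_circ_0000626 of Ep300, which had 31, 79 and 49 counts in control, 19 and 22 in AC, and 51, 29 and 43 in UUO. Both AC libraries lay below the controls and UUO did not (AC log2 fold change -1.04, SE 0.41, edgeR adjusted p = 0.244). Deacetylases had 6 circRNAs of Hdac2, Hdac8 and Hdac9, and 0 were tested. Hdac8 had the most, 12 counts in control, 9 in AC and 2 in UUO.

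Remodellers of the SWI/SNF, CHD and ISWI-related families had 61 circRNAs of 19 hosts, and 12 from 8 hosts were tested. In UUO 10 of the 12 had a negative log2 fold change (median -0.28) and in AC 7 did (median -0.26). By single circRNAs 0 passed with edgeR in either comparison, with 1 in UUO and 2 in AC at an unadjusted p under 0.05, all from Smarca2 (15.5% and 14.1% of all tested). As host sums 10 remodellers were tested, and Smarca2 was the 1 that passed.

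Smarca2 (BRM) is the ATPase motor of SWI/SNF complexes, used in place of its paralogue Smarca4 (BRG1). Its 7 circRNAs summed to 60, 137 and 74 counts in control, 19 and 19 in AC, and 35, 26 and 37 in UUO. Each injured library lay below each control, and the AC libraries lay below the UUO libraries. In UUO the sum was 2.62-fold lower, at 681.4 ± 137.1 CPM (SD, n = 3) against 1779 ± 573 CPM (SD, n = 3) in control. The log2 fold change was -1.39 (SE 0.32, edgeR adjusted p = 0.0103). In AC it was 3.92-fold lower, at 455.2 ± 59.53 CPM (SD, n = 2), and the log2 fold change was -1.97 (SE 0.39, edgeR adjusted p = 0.00413). Between the injuries the sum did not differ past the threshold (log2 fold change of UUO against AC 0.58, SE 0.40, adjusted p = 0.819). The UUO call was lost without control replicate 2, UUO replicate 2 or UUO replicate 3 (adjusted p from 0.0549 to 0.0747), and the AC call without AC replicate 1 (adjusted p = 0.0769). Smarca4 had 1 circRNA with 9, 2 and 16 counts in the control, AC and UUO groups and was not tested.

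The decrease in the Smarca2 sum was spread over several of its circRNAs, 6 of 7 having a lower mean CPM than control in each injury. The leading mmu_circ_0007648 had 12, 80 and 39 counts in control, 9 and 11 in AC, and 10, 12 and 18 in UUO; control replicate 1 overlapped with the injured libraries. The second, mmu_circ_0007644, had 28, 35 and 14 counts in control, 4 and 6 in AC, and 19, 9 and 13 in UUO. Neither passed by itself (edgeR adjusted p in AC 0.157 and 0.131). The untested mmu_circ_0007642 had 6, 8 and 7 counts in control and 0 in all 5 injured libraries. Taking 3 counts over a group as the floor, it was at least 6.57-fold lower in UUO and at least 3.88-fold lower in AC, a bound that covers counting error only. In AC, mmu_circ_0007643 and mmu_circ_0007646 were also at 0 in both libraries, against 20 and 16 counts in control. One circRNA went the other way in AC: mmu_circ_0007649 had 1, 3 and 0 counts in control and 6 and 2 in AC.

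**Figure D3:**
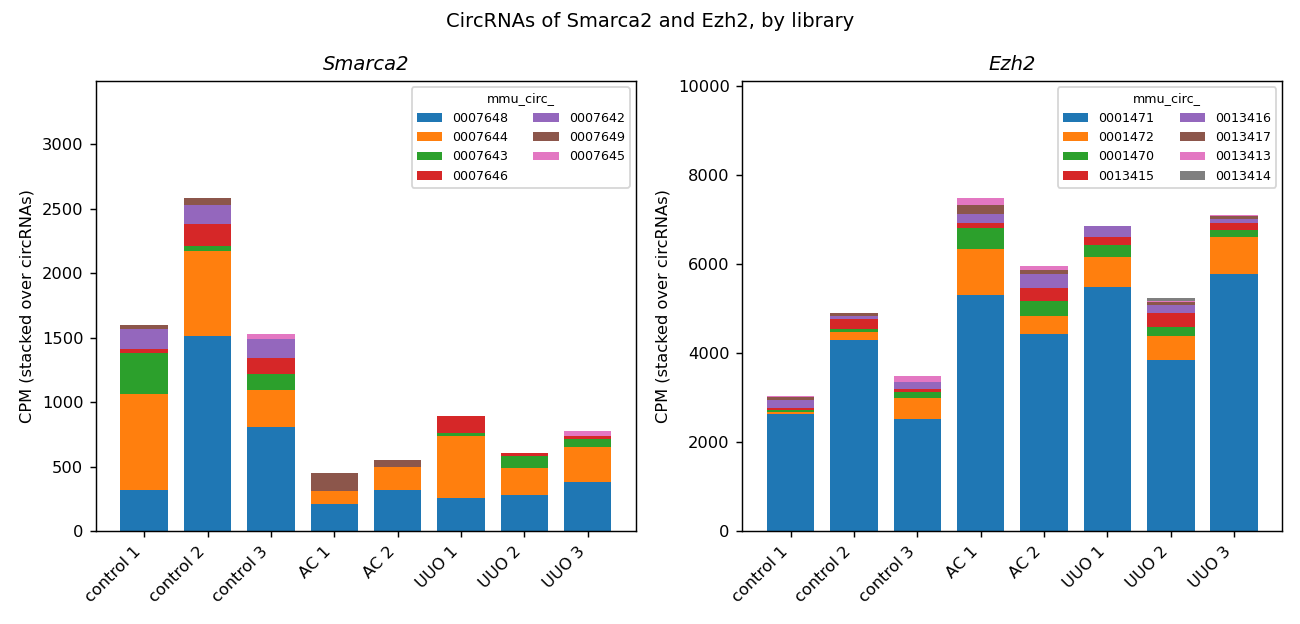
CPM per circRNA, stacked (y axis, from 0), for the 7 circRNAs of Smarca2 (left) and the 8 of Ezh2 (right) in each of the 8 libraries (x axis). The Smarca2 stack is shorter in each injured library than in each control, with mmu_circ_0007642 absent from the 5 injured libraries, and the Ezh2 stack is mostly mmu_circ_0001471, which holds 78.1% of its counts.

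The CHD remodellers Chd1 and Chd2 did not pass. The Chd2 circRNA mmu_circ_0014385 was the second most abundant of the tested members by mean CPM, with 92, 218 and 114 counts in control, 148 and 77 in AC, and 128, 59 and 113 in UUO, and the groups overlapped. Its log2 fold change was -0.36 in UUO (SE 0.31, edgeR adjusted p = 0.639) and -0.05 in AC, a sign that turned without control replicate 2 or AC replicate 2. The Chd1 circRNA mmu_circ_0006558 had 12, 39 and 17 counts in control, 9 and 16 in AC, and 5, 11 and 12 in UUO. Scaled to library size the UUO libraries lay below the controls (log2 fold change -1.14, SE 0.55, edgeR adjusted p = 0.332).

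Arid5b, a DNA-binding protein with an ARID domain, gave the largest increase of the 64 tested members in UUO. Its 1 listed circRNA, mmu_circ_0002370, is also its host sum. It had 12, 10 and 30 counts in control, 30 and 37 in AC, and 42, 69 and 67 in UUO. Each UUO library lay above each control; scaled to library size the AC libraries also lay above the controls, AC replicate 1 only just, at 706.8 CPM against 620.3 CPM in control replicate 3. In UUO it was 3.61-fold higher, at 1361 ± 275.6 CPM (SD, n = 3) against 376 ± 221.3 CPM (SD, n = 3) in control. The log2 fold change was 1.85 (SE 0.40, edgeR adjusted p = 0.0178). The call was lost without UUO replicate 2 or 3 (adjusted p = 0.0970 and 0.0768). In AC the log2 fold change was 1.23 (SE 0.45, adjusted p = 0.200).

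Readers, proteins with PHD fingers, bromodomains or related folds, had 44 circRNAs of 15 hosts, with 11 tested. In UUO 10 of the 11 had a negative log2 fold change (median -0.35) and in AC 8 did, and 0 passed with edgeR in either; 1 in UUO and 0 in AC had an unadjusted p under 0.05 (15.5% and 14.1% of all tested). The set is dominated by Mllt10 (AF10), a cofactor of the methyltransferase Dot1l, with 13 circRNAs of which 7 were tested. Its host sum of 115, 126 and 94 counts in control, 122 and 52 in AC, and 47, 105 and 107 in UUO overlapped between groups and did not pass (UUO log2 fold change -0.37, SE 0.30, edgeR adjusted p = 0.533).

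Within that sum, the Mllt10 circRNAs were often at 0 in 1 library of a group and well above 0 in the next. The circRNA mmu_circ_0000982 had 4, 22 and 14 counts in control, 10 and 0 in AC, and 0 in all 3 UUO libraries. Taking 3 counts over a group as the floor, it was at least 11.7-fold lower in UUO, a bound that covers counting error only. With 1 control library left out and the UUO floor kept, the lowest bound was 8.57-fold. This circRNA did not pass in edgeR (adjusted p = 0.0823), while with DESeq2 it did (adjusted p = 0.0122). Another, mmu_circ_0009660, had 28, 0 and 0 counts in control, 25 and 12 in AC, and 0, 39 and 18 in UUO. In AC replicate 2 the circRNAs mmu_circ_0000981, mmu_circ_0000982, mmu_circ_0000983 and mmu_circ_0000984 were all at 0, while AC replicate 1 had 18, 10, 29 and 14. The circRNA mmu_circ_0009666 had 8, 12 and 0 counts in control, 20 and 12 in AC, and 0, 3 and 5 in UUO, with a log2 fold change of 1.48 in AC (SE 1.15, edgeR adjusted p = 0.646). It reached the count cutoff only in AC, so the filter favours this sign.

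**Figure D4:**
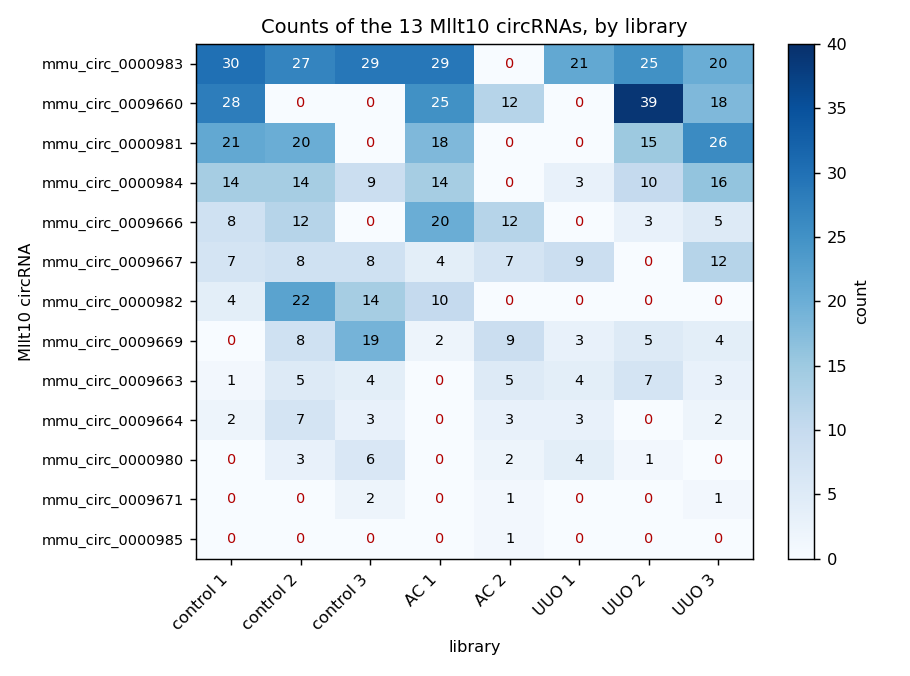
Deposited counts (colour scale and printed numbers, 0 in red) of the 13 Mllt10 circRNAs (y axis) in each of the 8 libraries (x axis). Zeros stand beside counts of 10 or more within a group, as for mmu_circ_0009660 (28, 0 and 0 in control) and mmu_circ_0000983 (29 and 0 in AC), and mmu_circ_0000982 is at 0 in the 3 UUO libraries.

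Such zeros occurred in other chromatin hosts too. Of the 64 tested circRNAs, 15 had a 0 beside a count of at least 10 in the same group, which is 23.4%, against 13.4% of all tested circRNAs. They came from Baz2b, Ehmt1, Ep300, Jarid2, Kdm2a, Mllt10, Phf12 and Phf21a. In Kdm2a, a demethylase that binds unmethylated CpG DNA, mmu_circ_0007807 had 0, 0 and 17 counts in control, 15 and 0 in AC, and 0, 30 and 28 in UUO. In Phf21a, a reader in the LSD1 corepressor complex, mmu_circ_0010263 had 33, 3 and 0 counts in control, 25 and 41 in AC, and 7, 7 and 7 in UUO; without control replicate 1 it passed as higher in AC (edgeR adjusted p = 0.0141). The cause of these zeros was not tested, and a fold change of such a circRNA depends on the libraries that hold them.

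Asxl proteins are scaffolds of the Polycomb deubiquitinase. They had 16 circRNAs, 5 of them tested, from Asxl2 and Asxl3. In UUO all 5 had a negative log2 fold change (median -0.69) and in AC 4 did (median -0.35). Of the 5, mmu_circ_0000849 reached the count cutoff only in control, where it was high, so the filter favours its negative sign. In both injuries 0 passed with edgeR, with 0 in UUO and 1 in AC at an unadjusted p under 0.05 (15.5% and 14.1% of all tested). The 8 Asxl3 circRNAs summed to 56, 68 and 92 counts in control, 42 and 27 in AC, and 34, 42 and 37 in UUO. Each injured library lay below each control after scaling. The log2 fold changes were -0.89 in UUO (SE 0.30, edgeR adjusted p = 0.0896) and -0.84 in AC (SE 0.35, adjusted p = 0.238), and neither passed. The leading mmu_circ_0000850 had 31, 43 and 56 counts in control, 11 and 15 in AC, and 25, 29 and 20 in UUO (AC log2 fold change -1.43, SE 0.44, edgeR adjusted p = 0.113; with DESeq2 it passed, adjusted p = 0.0432). The minor mmu_circ_0000849 had 12, 8 and 18 counts in control, 9 and 5 in AC, and 5, 6 and 5 in UUO.

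DNA methylation genes had 6 circRNAs of Dnmt3a, Tet1, Tet2 and Tet3. The 1 tested was mmu_circ_0003951 of Dnmt3a, which sets new DNA methylation. It had 46, 51 and 84 counts in control, 32 and 45 in AC, and 48, 49 and 31 in UUO, overlapping between groups. Its log2 fold changes of -0.39 in UUO (SE 0.34) and -0.35 in AC (SE 0.39) did not pass (edgeR adjusted p = 0.656 and 0.758).

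UUO and AC were also compared directly, without the controls. Of the 64 circRNAs 0 passed with edgeR, as did 0 of all 1471 (a share of 0%), and 0 members passed with DESeq2 or limma-voom; 4 had an unadjusted p under 0.05, all lower in UUO, where 5.57% of all tested did. The clearest was Jmjd1c, whose mmu_circ_0000173 had a log2 fold change of UUO against AC of -0.99 (SE 0.38, edgeR adjusted p = 0.816), with each UUO library below each AC library after scaling. The others were mmu_circ_0000982 and mmu_circ_0009666 of Mllt10 and mmu_circ_0010263 of Phf21a, each with at least 1 zero in some group. Of these, mmu_circ_0009666 reached the count cutoff only in AC, where it was high, so its lower value in UUO is no support for a difference. As host sums 0 of 38 passed with edgeR and 2 had an unadjusted p under 0.05, Jmjd1c and Phf21a, both lower in UUO, where 5.99% of all hosts did. A miss at this depth does not show that the injuries had the same level.

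Whether a circRNA moved differently from the other circRNAs of its host was tested for 44 members of 14 hosts. In UUO 0 of the 44 passed with edgeR (0 of 705 over all hosts, a share of 0%), with 1 at an unadjusted p under 0.05 (1.84% over all hosts), mmu_circ_0000982 of Mllt10. In AC 0 of the 44 passed (0.142% of the 705), with 0 at an unadjusted p under 0.05 (2.70% over all hosts). Few circRNAs of any host reached an unadjusted p under 0.05 in this test. A miss in it does not show that the circRNAs of a host moved together.

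A list of 92 other chromatin genes that the name stems do not take in was set beside them, by counts. Of these, 52 hosts had 167 listed circRNAs, of which 48 from 28 hosts were tested, and 31 hosts were tested as sums. With edgeR, DESeq2 and limma-voom alike, 0 passed in any of the 3 comparisons at either level. At an unadjusted p under 0.05 there were 1 circRNA in UUO, 2 in AC and 1 in UUO against AC, where 15.5%, 14.1% and 5.57% of all tested circRNAs were. There were 0 host sums in each of the 3 comparisons, where 231, 178 and 71 of all 1185 hosts were. Their median log2 fold change was 0.08 in UUO and 0.10 in AC. The list was chosen with earlier results of these data known, so it is not an independent contrast to the members.

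The cell makeup of the libraries could be read only in part. Of 34 kidney cell markers, 6 had a listed circRNA (Lrp2, Klhl3, Magi2, Flt1, Dcdc2a and Nfkb1). The markers of collecting duct, fibroblasts and leukocytes, 10 in all, had none. The circRNA of Lrp2, the proximal tubule receptor megalin, ran from 220.1 to 1639 CPM in control, 549.6 to 565.3 CPM in AC and 242.3 to 628.1 CPM in UUO, overlapping. The circRNAs of Klhl3, a distal tubule gene, summed to between 1856 and 2548 CPM in control, 326.1 and 628.1 CPM in AC, and 325.7 to 602.6 CPM in UUO. Those of the failed-repair tubule genes Dcdc2a and Nfkb1 together ran from 709.1 to 908.6 CPM in control, and were 3848 and 4083 CPM in AC and 4304 to 4641 CPM in UUO. Those of the podocyte marker Magi2 ran from 154.6 to 391.2 CPM in control, 239.1 to 340.2 CPM in AC and 69.79 to 353.3 CPM in UUO. Those of the endothelial marker Flt1 ran from 89.07 to 122.3 CPM, 0 to 130.9 CPM and 0 to 130.5 CPM, and both overlapped. Unlike Lrp2, Magi2 and Flt1, the Klhl3, Dcdc2a and Nfkb1 values moved with the groups in which Smarca2 was lower and Arid5b, Whsc1 and Ezh2 were higher. The part of these markers in those results was not tested. The marker list was chosen with earlier results of these data known, so it is not an independent readout of cell makeup. Havcr1 and Vcam1, the other failed-repair markers on the list, had no listed circRNA.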

How the data were processed

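The authors deposited whole-number counts per circRNA and library without normalization, per the file headers, and a signal table; its deposited signal values are the counts divided by 1 constant per library, between 8718 and 11941, as the values show. The genome build was mm9, and HISAT2 and StringTie are listed without role or version, per the submitters' processing notes; the junction caller is not named in them. No coordinates or sequences of the circRNAs were used.

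Counts of all 6315 circRNAs, and their sums per host gene (leaving out rows with no host), were tested with edgeR 4.0.16 in R 4.3.3 (quasi-likelihood test, 1 fit of 3 groups, TMM, default filter with a count of 10 and a total of 15), adjusted by Benjamini-Hochberg over all 1471 circRNAs or 1185 hosts, at a threshold of 0.05. Host sums were scaled apart from circRNAs. The biological coefficient of variation was 0.413. Standard errors divide the absolute log2 fold change by the root of the F statistic. Bounds use a floor of 3 counts over a group. Shifts between circRNAs of a host were tested with diffSpliceDGE. Alternatives used limma 3.58.1 (voom), DESeq2 1.42.0, other filters, the deposited constant and each library left out. The tests were tried on simulated data first, the within-host test with less spread between libraries than in these data. Replicates differed by more than counting noise (chi-square per degree of freedom from 3.00 to 4.72), so none was counted as a duplicate. P-values thus reflect differences among libraries that may be technical.

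Named with values are members past the threshold, the 5 largest increases and decreases without overlap in each injury, the 8 most abundant and hosts with at least 4 tested circRNAs; other names were chosen after their values were seen. The members and lists were chosen with earlier results of these data known.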

Additional observations from a re-analysis of the deposited data

How the results depend on the processing

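Depth limits these results: 3 counts came to 56.6 CPM or more, and where 1 of the 2 AC libraries was left out, the spread of the remaining AC library was taken from the other groups. With the deposited constant as library size, the median log2 fold change of all circRNAs moved to -0.26 in UUO and -0.34 in AC (-0.25 and -0.30 for hosts), and calls fell to 1 and 0 circRNAs and 2 and 1 hosts: Arid5b remained in UUO and the Smarca2 sum in both, while Whsc1, Ezh2 and Jmjd1c were lost (adjusted p of the host sums 0.197, 0.471 and 0.0665). DESeq2 called 4 circRNAs in UUO and 3 in AC, and limma-voom 4 hosts in AC. Over all circRNAs, DESeq2 called 103 in UUO. Totals over all features are not given here for DESeq2 in AC, for limma-voom or for single libraries left out. Those counts of called members are therefore not compared with all features. Leaving out 1 library gave 0 to 3 called circRNAs in UUO and 0 to 2 in AC, and 1 to 4 and 0 to 3 hosts. The share of counts held by members in control was 3.35% among circRNAs past the filter.

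Same-numbered libraries showed no sign of pairing (correlations from -0.113 to 0.0417). This check cannot exclude pairing, as with 2 AC libraries the values of both mirror each other. With the replicate block, 0 circRNAs passed in UUO and 0 in AC, and 2 hosts in UUO (Arid5b and Smarca2); over all circRNAs 12 and 5 passed. 

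Signs turned for some values that had not passed. The log2 fold change of the Ehmt1 circRNA mmu_circ_0009734 in UUO was -0.13 with the constant and -0.20 with limma-voom, and ranged from -0.17 to 0.62 without 1 library. The Ehmt1 sum in UUO was -0.17 with the constant and ranged from -0.11 to 0.19. The Mll3 circRNA mmu_circ_0001327 in AC was 0.032 with the replicate block and ranged from -0.16 to 0.046. Without 1 library, Ep300 mmu_circ_0000626 in UUO ranged from -0.48 to 0.039, Nsd1 mmu_circ_0004671 in UUO from -0.026 to 0.46, Mll1 mmu_circ_0001768 in AC from -0.78 to 0.28 (0.045 without AC replicate 1), Chd1 mmu_circ_0006558 in AC from -1.17 to 6.19e-05, Chd2 mmu_circ_0014385 in AC from -0.45 to 0.27 (0.20 without AC replicate 2), and the Mllt10 sum in AC from -0.74 to 0.19. The causes were not tested. Of the other values of named circRNAs and hosts, 390 kept direction and call under other settings (10 lost and 7 gained a call) and 428 without 1 library (22 lost and 5 gained one). Most of these values had not passed and so had no call to lose. All lost calls fell on values that had passed. The Ezh2 sum in UUO lost its call in 6 fits and kept it in 9, and so did mmu_circ_0001335 of Whsc1 in UUO.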
